A study of Mus musculus with 20 samples.

Results

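The set described here holds 10 genes of gluconeogenesis and the hormonal response to fasting (Pck1, G6pc, Fbp1, Ppargc1a, Tat, Igfbp1, Fgf21, Angptl4, Pdk4 and Cpt1a), out of 46603 gene identifiers in the count files. The genes were chosen by name as a list, and all 10 were found and passed the filter on low counts, which 14661 genes passed in all. Liver poly(A) RNA was sequenced in bulk from male mice aged 2 months. Wild-type (WT) mice were C57BL/6J animals bought from the Jackson Laboratory. EedHepKO mice (KO) carried Alb:Cre, a Cre recombinase driven by the hepatocyte-expressed albumin promoter, together with Eedflox alleles whose loxP sites flank exons 3 and 6 of Eed. Eed encodes a core subunit of polycomb repressive complex 2, which methylates histone H3, and the design asks how its loss in hepatocytes alters the resting and the regenerating liver. Each genotype gave 5 samples at baseline, from lobes 1, 2 and 3 as they were removed at partial hepatectomy (PHx), and 5 samples after PHx, from the remaining lobes 4, 5 and 6. In each genotype the samples after PHx came from 1 mouse at 30 h, 2 mice at 40 h and 2 mice at 48 h. No fasting or hormone treatment is given in the labels, and neither the time of day nor the feeding state is given there. Genotype cannot be told apart from colony of origin, and PHx cannot be told apart from lobe.

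In fasting, glucagon and glucocorticoids raise, and insulin lowers, the hepatic output of glucose. Phosphoenolpyruvate carboxykinase (Pck1), fructose-1,6-bisphosphatase (Fbp1) and the catalytic subunit of glucose-6-phosphatase (G6pc) carry out steps that glycolysis does not share, and the coactivator PGC-1alpha (Ppargc1a) drives their transcription. Tyrosine aminotransferase (Tat) degrades an amino acid and is a classical glucocorticoid-induced gene, and the secreted binding protein IGFBP1 (Igfbp1) is repressed by insulin. Fatty acids of the fasted state act through PPAR-alpha on the hormone FGF21 (Fgf21), on the lipoprotein lipase inhibitor ANGPTL4 (Angptl4), on the kinase that shuts down pyruvate dehydrogenase (Pdk4) and on the enzyme that admits long-chain fatty acids to mitochondria (Cpt1a). A liver reduced by PHx must keep blood glucose up while its hepatocytes divide.

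The upstream promoter sequences of 4 genes are shown because these genes differed in their values below: Pck1, which was not called in any comparison, G6pc, which fell after PHx, and Igfbp1 and Fgf21, which were lower where mitotic genes were higher. They are the 250 bases before the RefSeq start (GRCm38.p6), 5′ to 3′ on the gene's strand, with motif matches in capitals.
Pck1, chr2:173152823-173153072, plus strand: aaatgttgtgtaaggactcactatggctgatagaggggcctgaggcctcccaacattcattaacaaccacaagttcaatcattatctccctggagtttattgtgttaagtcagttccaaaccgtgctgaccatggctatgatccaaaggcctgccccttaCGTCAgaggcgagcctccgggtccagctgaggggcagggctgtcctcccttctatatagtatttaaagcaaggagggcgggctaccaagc
G6pc, chr11:101367466-101367715, plus strand: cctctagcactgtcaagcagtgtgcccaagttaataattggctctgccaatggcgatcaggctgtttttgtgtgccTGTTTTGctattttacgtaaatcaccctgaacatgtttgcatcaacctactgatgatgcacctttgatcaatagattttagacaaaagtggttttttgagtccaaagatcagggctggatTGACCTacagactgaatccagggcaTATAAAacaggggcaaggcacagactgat
Igfbp1, chr11:7197537-7197786, plus strand: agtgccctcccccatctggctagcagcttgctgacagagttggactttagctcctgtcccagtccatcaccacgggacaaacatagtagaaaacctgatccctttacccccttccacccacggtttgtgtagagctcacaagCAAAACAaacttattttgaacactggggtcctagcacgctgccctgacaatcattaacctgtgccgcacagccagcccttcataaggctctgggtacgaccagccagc
Fgf21, chr7:45615491-45615740, minus strand: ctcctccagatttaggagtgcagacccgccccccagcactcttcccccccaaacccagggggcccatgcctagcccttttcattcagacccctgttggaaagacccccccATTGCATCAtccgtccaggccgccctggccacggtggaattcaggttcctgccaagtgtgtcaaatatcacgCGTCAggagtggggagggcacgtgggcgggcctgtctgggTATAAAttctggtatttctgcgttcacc

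RefSeq promoters were found for 9 of the 10 genes, all but Angptl4. Both strands of 300 bases, 250 before the start and 50 after it, were searched, and positions count from the start. TGACG, the core of the cyclic AMP response element, lay at -90 in Pck1, at -49 in Ppargc1a and at -68 in Fgf21, and 20.8% of all 32851 promoters of this length held it. The insulin response core CAAAACA lay at -174 in G6pc, -108 in Igfbp1 and -219 in Cpt1a (6.28% of all promoters). The nuclear receptor core AGGTCA lay at -54 in G6pc and -94 in Cpt1a (16.3% of all promoters). Fgf21 held the element bound by ATF4, TGATGNAAT, at -140 (0.965% of all promoters), and a TATAAA lay at -29 in G6pc and -28 in Fgf21 (13.6%). The full cyclic AMP response element TGACGTCA (1.79% of all promoters), the forkhead motif TGTTTAC (3.65%) and the glucocorticoid receptor core AGAACA (19%) had no match in the 9 windows, nor had the whole glucocorticoid element (0.00913%) or the PPAR element (0.0396%). Matches on the reverse strand appear in the printed sequences as their reverse complement. The windows of Fbp1, Tat and Pdk4 held no match to any of the motifs searched.

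Total counts were 21634890 to 30461351 per library. Eed was lower in all 10 KO libraries (2.75 to 7.52 CPM, counts per 1000000 counts of the scaled total) than in all 10 WT libraries (14.6 to 23.2 CPM); the remaining reads include those from cells without Cre and from exons outside the deletion, and their share was not tested. Hepatocyte marker sums (6 genes, Alb among them) were 113700 to 133700 CPM in WT and 75640 to 102600 CPM in KO at baseline, without overlap, and 71900 to 117500 CPM in WT and 39360 to 87380 CPM in KO after PHx. The factors that scale the totals also split by genotype at baseline (0.67 to 0.806 in WT, 0.983 to 1.187 in KO). A lower factor gives a higher CPM, and the part of this scaling in the gap was not tested. Alb reached 102000 CPM in WT and 78100 in KO at baseline. The highest baseline levels of Hpx (4350 and 7040 CPM) and Apoc3 (1830 and 1990 CPM) were higher in KO. Macrophage sums (133.6 to 227.7 CPM in WT and 306.1 to 390.7 in KO) and stellate and fibroblast sums (121.9 to 214.3 and 336.3 to 490.2) were higher in KO at baseline, without overlap. So were endothelial sums (148.6 to 176.9 CPM in WT and 183.1 to 216.4 in KO) and leukocyte sums (5.094 to 8.451 and 8.732 to 30.33). A mitotic score, the mean log2(CPM + 1) of 30 mitotic genes, was 0.412 to 0.649 in WT at baseline and 1.481 to 3.339 in KO at baseline. After PHx it ran from 0.332 to 6.309 in WT and from 0.836 to 5.46 in KO. WT replicates 2 (40 h) and 4 (48 h) after PHx scored 0.356 and 0.332, below all WT baseline libraries, and values without both of them are given beside the results for WT after PHx that they move most. Labels name 9 mice with a sample at both stages, so same-numbered samples share an animal. Marker sums of cholangiocytes were 23.26 to 58.31 CPM in WT and 56.2 to 360.3 CPM in KO at baseline, and 20.93 to 239.6 CPM in WT and 123.2 to 797.6 CPM in KO after PHx, with overlap between the genotypes at both stages. Fewer cells of a type and less RNA per cell cannot be told apart in bulk samples.

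**Figure D1:**
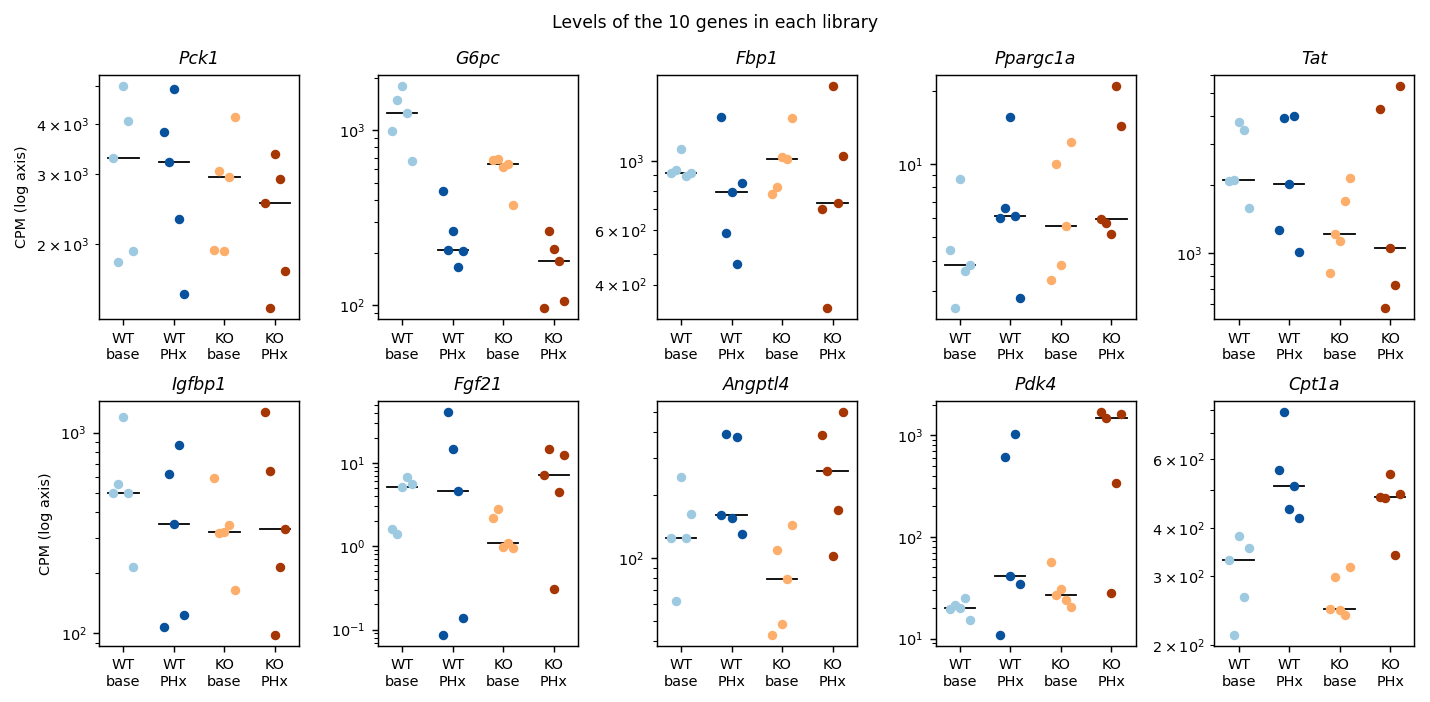
CPM of each of the 10 genes in each library (log axis) for WT and KO at baseline and after PHx, 5 libraries per group, with bars at the medians. G6pc lies lower and Cpt1a higher after PHx in both genotypes without overlap, and Pdk4 spans 10.9 to 1020 CPM in WT and 28.3 to 1691 CPM in KO after PHx.

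Levels per kilobase of exon, which allow genes to be compared with each other, spanned a wide range in WT liver at baseline. Tat (1079 ± 398 CPM per kb, SD, n = 5), Pck1 (940.4 ± 402), Fbp1 (558 ± 46.7), G6pc (514 ± 181) and Igfbp1 (388 ± 239) were the abundant transcripts, and each differed from its neighbour in this order by less than the larger SD. Angptl4 (40.6 ± 18.8 CPM per kb) and Cpt1a (40.5 ± 9) were lower than these 5 genes and close to each other. Pdk4 (5.75 ± 1.01 CPM per kb) and Fgf21 (4.29 ± 2.54) came next, followed by Ppargc1a (0.701 ± 0.357). After PHx in KO, Pdk4 reached 292 ± 223 CPM per kb and passed the mean of G6pc, which stood at 71 ± 29.4. Fbp1, Tat, Pck1 and Igfbp1 kept means of at least 228 CPM per kb in all 4 groups.

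After PHx the set did not move as a block. G6pc fell in both genotypes, Cpt1a and Pdk4 rose in both, Angptl4 rose in KO and was not called in WT, and 6 genes, among them Pck1, Fbp1 and Tat, were called in neither genotype. In WT, 2 genes rose and 1 fell at an adjusted p under 0.05, beside 11.4% of all genes tested called higher and 8.68% called lower. With the mouse as a block, 0 were called higher and 1 lower in WT, where 1979 of 14977 genes were called in either direction. Without WT replicates 2 and 4 after PHx, 1 was called higher and 1 lower, beside 7.15% and 3.05% of all genes. In KO, 3 genes rose and 1 fell, beside 17.5% called higher and 12.1% called lower (29.5% in all). The median log2 change of the 10 genes was 0.33 in WT and 0.68 in KO, beside 0.04 and 0.10 over all genes. Among markers, endothelial sums fell without overlap, from 148.6 to 176.9 CPM at baseline to 75.83 to 142.1 after PHx in WT. In KO they fell from 183.1 to 216.4 CPM to 93.02 to 163.6 CPM. Cholangiocyte genes called higher after PHx were 1 of 6 in WT and 4 of 6 in KO (median log2 2.76). The part of these markers in the responses was not tested. None of the 10 differed between the genotypes in its response: adjusted p values of the difference ran from 0.526 for Angptl4, whose response was larger in KO by 0.99 ± 0.64 (SE) on the log2 scale, to 0.979 for Cpt1a, and 0.389% of all genes were called in that comparison, 0.164% higher and 0.225% lower. An unadjusted p was under 0.05 for 0 of the 10 and for 13.3% of all genes. With WT replicates 2 and 4 after PHx left out, the difference was 4.40 for Pdk4 (adjusted p = 0.0578), 1.62 for Angptl4 (adjusted p = 0.216), 2.04 for Igfbp1 (adjusted p = 0.245), 1.89 for Fgf21 (adjusted p = 0.516) and 1.58 for Tat (adjusted p = 0.325).

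G6pc releases free glucose from glucose-6-phosphate and is the last enzyme of gluconeogenesis (ENSMUSG00000078650, mm10 chr11:101367561-101377903, protein coding). In WT it was at 995, 1483, 1802, 1250 and 669 CPM at baseline (replicates 1 to 5), and at 453 CPM at 30 h, 208 and 267 CPM at 40 h and 167 and 205 CPM at 48 h. In KO it was at 679.9, 686, 614, 640.1 and 374 CPM at baseline (replicates 7, 8, 10, 11 and 12), and at 106 CPM at 30 h, 209 and 180.5 CPM at 40 h and 96.3 and 266 CPM at 48 h. Baseline and later levels did not overlap in either genotype, and the fall was seen at 30, 40 and 48 h. G6pc was 4.77-fold lower after PHx in WT (log2 -2.25 ± 0.34, SE; adjusted p = 0.000206, edgeR's quasi-likelihood test) and 3.49-fold lower in KO (log2 -1.80 ± 0.33; adjusted p = 0.00136). It fell in 4 of 4 WT mice and 5 of 5 KO mice sampled at both stages, by log2(CPM + 1) changes from -2.898 to -1.698 and from -2.807 to -1.367.

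Pck1, which makes phosphoenolpyruvate from oxaloacetate (ENSMUSG00000027513, mm10 chr2:173153048-173159273), had no called change, and its group levels overlapped. Its levels were 3302, 1808, 5004, 4082 and 1928 CPM in WT at baseline, and 3823, 3227, 4904, 2309 and 1504 CPM after PHx in order of time. In KO they were 1932, 3056, 1925, 2957 and 4164 CPM at baseline, and 1713, 3379, 2914, 2541 and 1382 CPM after PHx. The log2 change after PHx was -0.03 ± 0.35 (SE) in WT and -0.23 ± 0.35 in KO. The spread within each group was larger than the change.

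Fbp1 (ENSMUSG00000069805, mm10 chr13:62864753-62888282) had a narrow range of 894 to 1089 CPM in WT at baseline and of 781 to 1374 CPM in KO at baseline. After PHx it spread from 466 to 1384 CPM in WT and from 336 to 1744 CPM in KO. Both baseline ranges lie inside those after PHx, and its log2 changes were -0.22 in WT and -0.14 in KO, neither called. By mouse it was lower after PHx in 4 of 4 WT mice (log2(CPM + 1) changes from -0.937 to -0.102) and in 4 of 5 KO mice (-1.291 to 0.763). With the mouse as a block the changes were -0.54 in WT (adjusted p = 0.254) and -0.32 in KO (adjusted p = 0.401), also not called. The coactivator gene Ppargc1a (ENSMUSG00000029167, mm10 chr5:51454250-51567726) was the least abundant of the 10 per kilobase, with 2.55 to 8.64 CPM in WT and 3.32 to 12.2 CPM in KO at baseline, and 2.82 to 15.6 CPM in WT and 5.15 to 21 CPM in KO after PHx. Predicted gene models overlap Ppargc1a on both strands, and the strand setting of the counting is not given in the sources used here, so its reads cannot be told apart from theirs. Its log2 changes after PHx, 0.68 in WT and 0.57 in KO, were not called.

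**Figure D2:**
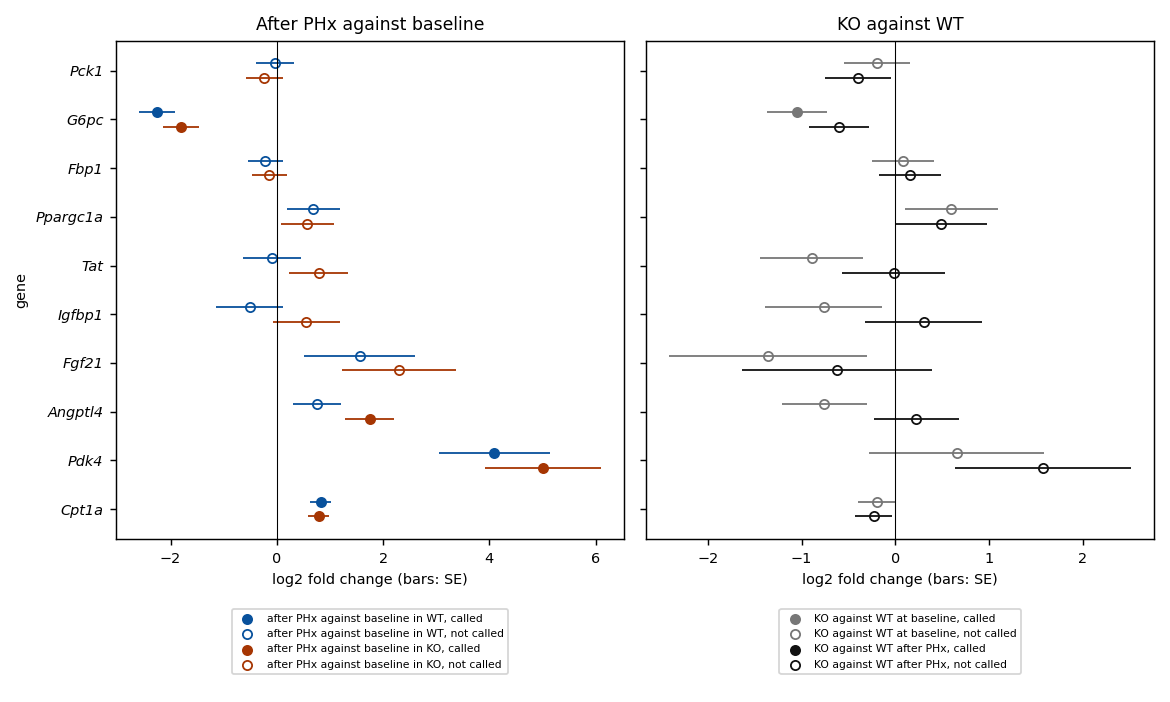
Log2 fold change and SE of the 10 genes from edgeR's quasi-likelihood fit of 20 libraries: after PHx against baseline in WT and KO (left) and KO against WT at baseline and after PHx (right). Filled points have an adjusted p under 0.05: G6pc, Pdk4 and Cpt1a in both responses, Angptl4 in the KO response and G6pc in KO against WT at baseline.

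Cpt1a, the gate for long-chain fatty acids into mitochondrial oxidation (ENSMUSG00000024900, mm10 chr19:3322334-3385733), rose in both genotypes. In WT it was at 331, 213, 382, 266 and 354 CPM at baseline, and at 562, 792, 447, 513 and 425 CPM after PHx in order of time. In KO it was at 248, 298, 246, 239 and 318 CPM at baseline, and at 487, 550.4, 341, 478 and 477 CPM after PHx. Groups did not overlap within a genotype. The rise was 1.77-fold in WT (log2 0.83 ± 0.20, SE; adjusted p = 0.00748) and 1.73-fold in KO (log2 0.79 ± 0.20; adjusted p = 0.0077), and Cpt1a was higher after PHx in all 9 mice sampled at both stages. With the mouse as a block, over the 4 WT mice with a number, the WT change was 0.83 with an adjusted p of 0.0745.

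Pdk4 keeps pyruvate out of the citric acid cycle by phosphorylating pyruvate dehydrogenase (ENSMUSG00000019577, mm10 chr6:5483351-5496309). It was low at baseline, with 19.4, 21.4, 20.1, 24.9 and 15.1 CPM in WT and 56.6, 26.9, 30.8, 23.9 and 20.4 CPM in KO. After PHx it stood in WT at 10.9 CPM at 30 h, 614 and 40.9 CPM at 40 h and 1020 and 34.1 CPM at 48 h. In KO it stood at 1615 CPM at 30 h, 28.3 and 335 CPM at 40 h and 1691 and 1461 CPM at 48 h. After PHx the level was thus near baseline in some libraries and far above it in others of the same genotype and hour. WT replicates 2 and 4 held the high WT values. Pdk4 rose 17.1-fold in WT (log2 4.09 ± 1.05, SE; adjusted p = 0.0102) and 32.3-fold in KO (log2 5.01 ± 1.09; adjusted p = 0.0035), with overlap between the stages in both. Without WT replicates 2 and 4, the WT change was 0.57 with an adjusted p of 0.706, and with the mouse as a block it was 3.10 with an adjusted p of 0.0939.

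Angptl4 inhibits lipoprotein lipase and thereby the uptake of plasma triglyceride (ENSMUSG00000002289, mm10 chr17:33773750-33781830). In KO it rose from 43, 109, 48.1, 79.7 and 144 CPM at baseline to 499.7, 102, 170.4, 389.7 and 259.8 CPM after PHx in order of time. That is 3.35-fold (log2 1.75 ± 0.46, SE; adjusted p = 0.0101), with an increase in 5 of 5 mice and an overlap between the stages. In WT it was at 125, 62.4, 244, 125 and 163 CPM at baseline and at 160.4, 394, 155, 378 and 130.2 CPM after PHx, and replicates 2 and 4 alone stood above the baseline range. The WT change of 0.76 (adjusted p = 0.25) went up in 2 of 4 mice, and without replicates 2 and 4 it was 0.11 (adjusted p = 0.937).

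**Figure D3:**
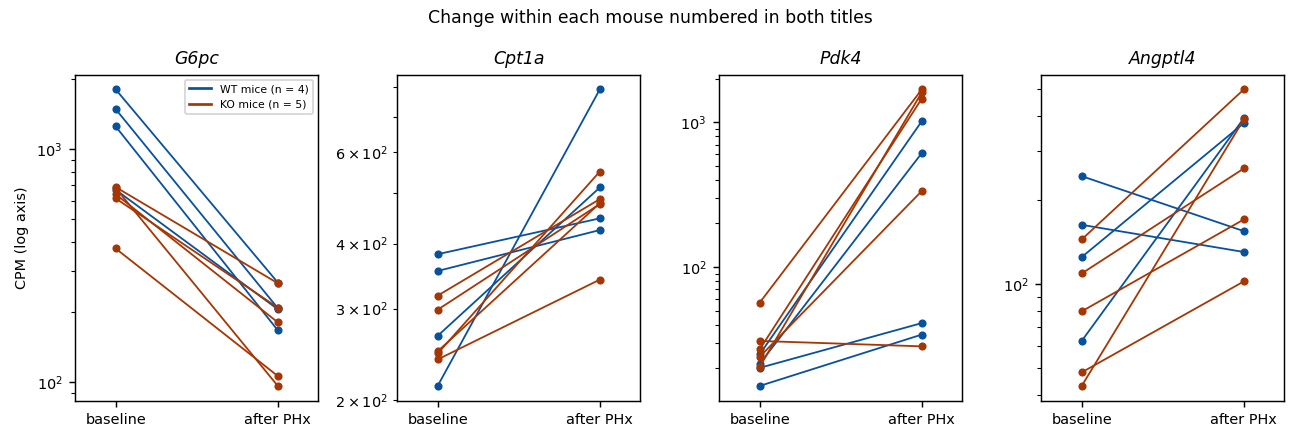
CPM (log axis) of G6pc, Cpt1a, Pdk4 and Angptl4 at baseline and after PHx, with a line for each of the 4 WT and 5 KO mice that the labels number at both stages. G6pc falls and Cpt1a rises along every line, Pdk4 rises along 8 of 9, and Angptl4 rises along 2 of 4 WT lines and 5 of 5 KO lines.

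Fgf21, Igfbp1 and Tat varied more among libraries after PHx than between the groups. Fgf21, a hormone that the liver releases in fasting and under amino acid stress (ENSMUSG00000030827, mm10 chr7:45613886-45615490), was at 1.4 to 6.7 CPM in WT and 0.939 to 2.79 CPM in KO at baseline. After PHx it stood in WT at 0.0872 CPM at 30 h, 40.7 and 14.8 CPM at 40 h and 4.61 and 0.137 CPM at 48 h, the first of these resting on 2 reads. In KO it stood at 12.5 CPM at 30 h, 0.305 and 4.42 CPM at 40 h and 7.16 and 14.7 CPM at 48 h. Values after PHx thus lay both above and below baseline in both genotypes. Its log2 changes of 1.56 in WT (adjusted p = 0.308) and 2.29 in KO (adjusted p = 0.109) were not called; with the KO libraries fitted alone the KO change was 2.30 with an adjusted p of 0.0459. The WT change was 0.35 without WT replicates 2 and 4 (adjusted p = 0.903).

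Igfbp1 (ENSMUSG00000020429, mm10 chr11:7197782-7202546) was at 214 to 1199 CPM in WT and 165 to 595 CPM in KO at baseline. After PHx it ran from 107 to 871 CPM in WT and from 98.7 to 1266 CPM in KO, with log2 changes of -0.51 and 0.55 that were not called (-1.55 in WT without replicates 2 and 4, adjusted p = 0.169). Tat (ENSMUSG00000001670, mm10 chr8:109990437-109999803) was at 1574 to 3758 CPM in WT and 818 to 2139 CPM in KO at baseline. After PHx it ran from 1017 to 3989 CPM in WT and from 576 to 5410 CPM in KO. Its log2 changes of -0.09 and 0.78 were not called (-0.80 in WT without replicates 2 and 4, adjusted p = 0.494), and the KO libraries after PHx held both its lowest and its highest level.

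Between the genotypes a single gene of the set was called. At baseline G6pc was 2.07-fold lower in KO than in WT (log2 -1.05 ± 0.32, SE; adjusted p = 0.0325), beside 4.89% of all genes called lower and 11.1% called higher. Among markers at baseline, 2 of 6 hepatocyte genes were called lower in KO (median log2 -0.43). Called higher were 4 of 6 stellate and fibroblast genes, 3 of 5 leukocyte genes tested (median log2 2.50) and 2 of 8 macrophage genes. Of endothelial and of cholangiocyte genes 1 of 6 was called higher. The part of these markers in the difference of G6pc was not tested. The ranges overlapped through WT replicate 5 (669 CPM), which lay below 2 of the KO libraries. The call ended without any 1 of WT replicates 2, 3 or 4 or KO replicates 7, 10, 11 or 12 (log2 -1.21 to -0.88 and adjusted p 0.0203 to 0.0975 over all 10 omissions), and with scaling by library size alone (-0.56, adjusted p = 0.263) or no filter on low counts (-0.98, adjusted p = 0.0646). For the other 9 genes the baseline differences ran from -1.36 for Fgf21 (adjusted p = 0.411) to 0.65 for Pdk4 (adjusted p = 0.679). When the baseline libraries were fitted alone, Fgf21 (-1.32, adjusted p = 0.0417) and Tat (-0.87, adjusted p = 0.0255) were also called lower in KO and Pdk4 (0.69, adjusted p = 0.0422) higher.

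After PHx, 0 of the 10 genes were called between KO and WT, where 24.2% of all genes were (16% higher and 8.2% lower). By an unadjusted p under 0.05 the count was also 0, beside 36.5% of all genes, and DESeq2 called 0. Among markers, 5 of 6 cholangiocyte genes were called higher in KO after PHx (median log2 2.93) and 3 of 6 hepatocyte genes lower (median -0.78). Of stellate and fibroblast genes 3 of 6 were called higher (median 0.82), and their sums did not overlap (136.8 to 212.5 CPM in WT, 264.9 to 447.9 in KO). The part of these markers in the values of the 10 genes was not tested. G6pc came nearest, with a log2 difference of -0.60 ± 0.32 (SE; adjusted p = 0.185). The difference for Pdk4, 1.58 ± 0.94 (SE; adjusted p = 0.236), became 5.12 with an adjusted p of 0.00118 without WT replicates 2 and 4, an omission chosen after the scores were seen that left the low-scoring KO libraries in. The same omission gave 0.92 for Angptl4 (adjusted p = 0.17), 1.34 for Igfbp1 (adjusted p = 0.148), 0.61 for Fgf21 (adjusted p = 0.71), 0.75 for Tat (adjusted p = 0.38) and -0.88 for G6pc (adjusted p = 0.0721). At 40 h and at 48 h, with 2 libraries per genotype, 0 of the 10 were called as well (of all genes, 13.3% at 40 h, 8.61% higher and 4.68% lower, and 24.3% at 48 h, 13.7% higher and 10.7% lower), with an unadjusted p under 0.05 for 2 of the 10, Fgf21 and Tat, at 40 h (31% of all genes) and for 0 at 48 h (37.9%). Fgf21 had a log2 difference of -3.53 at 40 h (adjusted p = 0.0648) and of 2.20 at 48 h (adjusted p = 0.179), neither called. The median log2 difference of 30 mitotic genes was 4.005 at 40 h and -4.589 at 48 h. At 40 h 1 of 30 mitotic and 17 of 25 S phase genes were called higher in KO. At 48 h 12 of 30 mitotic and 2 of 25 S phase genes were called lower. The part of these shifts in the Fgf21 differences was not tested.

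The libraries after PHx differed widely in mitotic gene expression, and 4 of the 10 genes were lower where it was higher. Igfbp1, Fgf21, Angptl4 and Pdk4 were called lower per unit of the mitotic score and 0 were called higher in a fit with genotype as a covariate, beside 6.21% of 13884 genes called lower and 7.16% called higher (13.4% in all). The scores ran from 0.332 to 6.309 with no gap over 22.1% of that range. In order of rising score the libraries were WT replicates 4 and 2, KO replicates 12, 7 and 8, WT replicate 3, KO replicate 11, WT replicate 1, KO replicate 10 and WT replicate 5. Hours after PHx did not follow that order: the lowest and the highest score were both from WT at 48 h.

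Pdk4 in that order was at 1020, 614, 1615, 1691, 1461, 40.9, 335, 10.9, 28.3 and 34.1 CPM. The 5 libraries of lowest score had at least 614 CPM and the other 5 at most 335 CPM, with libraries of both genotypes on either side. The slope was -0.92 ± 0.19 log2 per unit (SE; adjusted p = 0.0108), and r was -0.811 (permutation p = 0.00559, adjusted 0.0762) with rho -0.745 (p = 0.0172, adjusted 0.117). Without the 2 libraries farthest from the median score r was -0.794.

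Angptl4 in the same order was at 378, 394, 499.7, 389.7, 259.8, 155, 170.4, 160.4, 102 and 130.2 CPM. The 5 libraries of lowest score again held the 5 highest levels. The slope was -0.33 ± 0.06 per unit (SE; adjusted p = 0.00881), r was -0.891 (permutation p = 0.00034, adjusted 0.0204) and rho -0.867 (p = 0.0022, adjusted 0.0519), with r at -0.866 without the 2 farthest libraries.

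Igfbp1 was at 871, 621, 329, 1266, 646, 352, 214, 107, 98.7 and 123 CPM in order of rising score. The 3 libraries of highest score were the 3 lowest. The slope was -0.54 ± 0.10 per unit (SE; adjusted p = 0.00819), r was -0.873 (permutation p = 0.00106, adjusted 0.0346) and rho -0.794 (p = 0.00881, adjusted 0.089), with r at -0.837 without the 2 farthest libraries.

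Fgf21 was at 4.61, 40.7, 12.5, 7.16, 14.7, 14.8, 4.42, 0.0872, 0.305 and 0.137 CPM in order of rising score. The same 3 libraries were far below the other 7, which all held at least 4.42 CPM. The slope was -1.26 ± 0.26 per unit (SE; adjusted p = 0.0123), r was -0.844 (permutation p = 0.0029, adjusted 0.0559) and rho -0.673 (p = 0.0394, adjusted 0.169). Without the 2 farthest libraries r was -0.711 and the slope -1.11 with an adjusted p of 0.202, so the call ended at a similar slope.

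**Figure D4:**
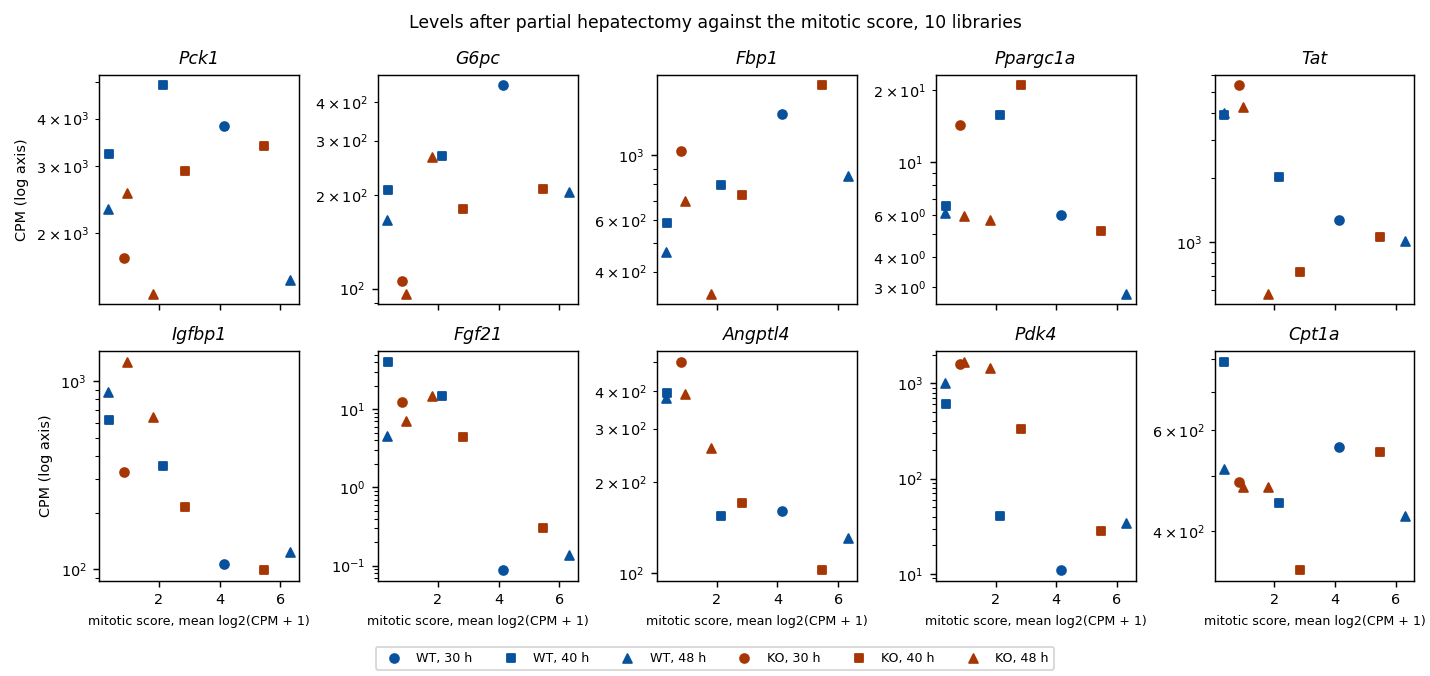
CPM (log axis) of the 10 genes against the mitotic score, mean log2(CPM + 1) of 30 genes, in the 10 libraries after PHx; colour gives the genotype and marker shape the hours. Igfbp1, Fgf21, Angptl4 and Pdk4 are lower at higher scores, with r from -0.891 to -0.811, while Pck1 has r = 0.013.

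None of the other 6 genes had a called slope. Tat had a slope of -0.39 ± 0.12 per unit (SE; adjusted p = 0.0503) and r = -0.662 (permutation p = 0.0414, adjusted 0.179), and the 4 libraries of lowest score included the 4 highest Tat levels (3909 to 5410 CPM). Fbp1 (slope 0.20, adjusted p = 0.136; r = 0.602, permutation p = 0.0661), G6pc (0.13, adjusted p = 0.324; r = 0.431, p = 0.217) and Pck1 (0.03, adjusted p = 0.892; r = 0.013, p = 0.972) were not called. Neither were Ppargc1a (-0.17, adjusted p = 0.478; r = -0.396, p = 0.262) and Cpt1a (-0.04, adjusted p = 0.623; r = -0.271, p = 0.453). G6pc was at most 453 CPM and Cpt1a at least 341 CPM over the whole range of the score. Correlations were computed for all 13884 genes, of which 25.5% had an unadjusted permutation p under 0.05 for r and 617 an adjusted one.

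Within WT alone (n = 5) the slopes of Igfbp1, Angptl4 and Pdk4 were -0.47 (adjusted p = 0.0455), -0.26 (adjusted p = 0.0839) and -0.82 (adjusted p = 0.0951). Within KO alone (n = 5) they were -0.68 (adjusted p = 0.156), -0.46 (adjusted p = 0.119) and -1.33 (adjusted p = 0.0561). All 6 were negative, and 1 of them was called. Fgf21 was dropped by the low-count filter in both of these smaller fits. With a term for the hours after PHx the 4 slopes stayed called, at -0.53 for Igfbp1, -1.27 for Fgf21, -0.33 for Angptl4 and -0.98 for Pdk4. With the 2 farthest libraries left out Pdk4 alone stayed called (-1.57, adjusted p = 0.00727), and Igfbp1 (-0.75, adjusted p = 0.0542) and Angptl4 (-0.42, adjusted p = 0.0558) did not. The Fgf21 call also ended without WT replicate 2 (-1.20, adjusted p = 0.0567) or KO replicate 10 (-1.23, adjusted p = 0.0593).

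Among sums of cell type markers, the adipocyte list followed the score most closely (r = -0.954, adjusted permutation p = 0.0018 over 12 measures; 4.739 to 747.2 CPM after PHx). That sum was almost wholly Cidec, a lipid droplet gene; Lep was at 0 in all 20 libraries, and Adipoq and Retn were at 0 in 18 each with at most 0.0459 and 0.0423 CPM. No other marker sum passed the adjusted threshold. The leukocyte sum (4.052 to 63.71 CPM) had r = -0.755 (adjusted permutation p = 0.072), and r was -0.48 without the 2 farthest libraries. Its highest levels after PHx were 26.3 CPM for S100a8 and 33.1 for S100a9, with Ptprc at most 7.37 and Cd3e at most 0.417. The macrophage sum had a positive r (60.16 to 329.8 CPM; r = 0.561, rho = 0.648, adjusted permutation p 0.315 and 0.146; r = 0.775 without the 2 farthest libraries). The hepatocyte sum (39360 to 117500 CPM) had r = -0.01, and the percent of counts from mitochondrial genes (6.17 to 9.57) had r = -0.545 (adjusted permutation p = 0.315). The part of these measures in the slopes was not tested.

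Of 23 enzymes and carriers around the gluconeogenic path, 5 rose and 1 fell after PHx in each genotype, where 11.4% of all genes rose and 8.68% fell in WT and 17.5% rose and 12.1% fell in KO (median log2 change 0.14 in WT and 0.13 in KO, beside 0.04 and 0.10 over all genes). Gpt2, which turns alanine into pyruvate, rose in both (1.63 ± 0.45 in WT and 1.44 ± 0.45 in KO, SE). Slc25a22, a mitochondrial glutamate carrier, rose in WT (1.92 ± 0.36), Got1, an aspartate aminotransferase, rose in KO (1.32 ± 0.39), and the cytosolic malate dehydrogenase Mdh1 fell in both (-0.80 and -0.67). Without WT replicates 2 and 4 the WT calls of Gpt2 (0.63, adjusted p = 0.321) and Mdh1 (-0.54, adjusted p = 0.212) ended, and 2 of 23 were called higher and 0 lower, beside 7.15% and 3.05% of all genes. Between the genotypes a single gene of this list was called at baseline, the mitochondrial counterpart of Pck1, Pck2, which was higher in KO (1.55 ± 0.52, SE; adjusted p = 0.0459; 2.94 ± 0.713 CPM in WT and 8.61 ± 1.75 in KO, SD, n = 5), and 0 of 23 after PHx, where 16% of all genes were called at baseline and 24.2% after PHx. With WT replicates 2 and 4 left out, Tpi1 (-0.87, adjusted p = 0.0171) and Pgk1 (-0.66, adjusted p = 0.0412), enzymes shared with glycolysis that were picked after their values were seen, were called lower in KO after PHx and 0 of 23 higher, beside 9.23% and 16.9% of all genes. At 40 h 1 of 23 was higher in KO and 5 were lower (8.61% and 4.68% of all genes), and at 48 h 1 was higher and 0 lower (13.7% and 10.7%).

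Genes of the fed state, glycolysis and lipogenesis, fell where they were called after PHx: 8 of 16 in WT and 5 of 16 in KO, with 0 called higher (medians -1.33 and -0.94), beside 8.68% and 12.1% of all genes called lower. In WT without replicates 2 and 4, 6 of 16 were called lower, beside 3.05% of all genes. Scd1, which desaturates fatty acids, fell by 3.16 in WT and by 2.54 in KO on the log2 scale. Between the genotypes, 1 of 16 was called higher and 4 lower at baseline (11.1% and 4.89% of all genes), and 2 higher and 3 lower after PHx (16% and 8.2% of all genes), among them Elovl6, a fatty acid elongase, lower in KO at both stages (-1.34 ± 0.44 and -1.35 ± 0.44, SE).

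Of 18 genes of ketogenesis and PPAR-alpha targeting, 3 rose and 2 fell after PHx in WT and 4 rose and 2 fell in KO, shares near those of all genes given for the enzymes above. The lipid droplet gene Plin2 rose in both (1.88 ± 0.51 in WT and 1.79 ± 0.51 in KO, SE), while Pdk2, another pyruvate dehydrogenase kinase, fell in both (-1.56 and -1.14). Without WT replicates 2 and 4 the WT changes of Plin2 (0.66, adjusted p = 0.367) and Pdk2 (-0.98, adjusted p = 0.055) were not called, and 1 of 18 rose and 1 fell (7.15% and 3.05% of all genes). At baseline 4 were lower and 0 higher in KO (4.89% and 11.1% of all genes), and after PHx, where 16% of all genes were higher and 8.2% lower, 1 was higher, Acot1, an acyl-CoA thioesterase (1.18 ± 0.38, SE; adjusted p = 0.0286; 0.86 and 0.127 without WT replicates 2 and 4), and 2 were lower.

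Of 25 hormone receptors and fasting regulators, 2 rose and 5 fell after PHx in WT, and 3 rose and 5 fell in KO, beside 11.4% and 8.68% of all genes that rose and fell in WT and 17.5% and 12.1% in KO. The leptin receptor gene Lepr went from 1.87 ± 0.709 to 56.4 ± 91.4 CPM in WT and from 2.71 ± 1.68 to 112 ± 86.8 CPM in KO (SD, n = 5; log2 4.91 and 5.37), and the adrenergic receptor gene Adra1b fell in both (-1.72 and -2.61). Without WT replicates 2 and 4 neither Lepr (1.19, adjusted p = 0.288) nor Adra1b (-1.19, adjusted p = 0.3) was called in WT, 0 of 25 rose and 2 fell there (7.15% and 3.05% of all genes), and Lepr was higher in KO than in WT after PHx (4.72, adjusted p = 0.000629). At baseline 3 of 25 were lower and 0 higher in KO (4.89% and 11.1% of all genes), among them Ppara, the receptor upstream of several genes of the set (74.4 ± 19.1 CPM in WT and 35.3 ± 5.02 in KO, SD, n = 5; log2 -1.07, adjusted p = 0.0259), and Cebpa, a hepatocyte transcription factor (-0.88, adjusted p = 0.019). After PHx the glucagon receptor gene Gcgr was lower in KO (-1.09 ± 0.32, SE; adjusted p = 0.0172) and the FGF receptor gene Fgfr1 higher (1.99 ± 0.39).

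Of 12 glucocorticoid receptor targets, 5 rose and 2 fell after PHx in WT (4 and 2 without WT replicates 2 and 4, where 7.15% and 3.05% of all genes did), and 6 rose and 2 fell in KO, beside 11.4% and 8.68% of all genes that rose and fell in WT and 17.5% and 12.1% in KO. Metallothionein Mt2 rose by 7.23 ± 1.20 in WT and 5.53 ± 1.11 in KO (log2, SE), and Tdo2, which degrades tryptophan, fell by 1.35 and 0.90. Against the mitotic score, 7 of these 12 were called lower and 0 higher (median slope -0.42, beside -0.01 over all genes, of which 6.21% were called lower and 7.16% higher), as were 6 of the 25 hormone receptors and fasting regulators (0 higher). Picked after their values were seen, Per1 (-0.56 ± 0.07, SE), Fkbp5 (-0.50 ± 0.07), Sgk1 (-0.55 ± 0.11) and Lepr (-0.95 ± 0.16) were among those called lower, and Irs2 (-0.24 ± 0.06), Foxo1 (-0.26 ± 0.06), Creb3l3 (-0.21 ± 0.05), Sik1 (-0.47 ± 0.08) and Lpin1 (-0.55 ± 0.11) were the other receptors and regulators. Plin2 was the 1 gene of 18 in the ketogenesis and PPAR-alpha list that was called lower (-0.49 ± 0.07), and in the fed-state list 2 of 16 were called higher and 0 lower, beside 7.16% and 6.21% of all genes. Of the 23 enzymes and carriers 1 was called higher, Pck2 (0.48 ± 0.09), and 2 lower, Gpt2 (-0.39 ± 0.09) and Slc37a4 (-0.31 ± 0.08). Of 12 amino acid and integrated stress genes 0 were called higher and 2 lower.

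Amino acid and integrated stress genes, the group that shares ATF4 as a regulator with Fgf21, had more calls between the genotypes after PHx than the other 5 pathway lists, 6 higher in KO and 1 lower of 12 (median 1.49, beside -0.01 over all genes, of which 16% were higher and 8.2% lower). After PHx 3 of 12 rose and 0 fell in WT (3 and 1 without WT replicates 2 and 4, where 7.15% and 3.05% of all genes did), beside 11.4% and 8.68% of all genes, and 5 rose and 2 fell in KO, beside 17.5% and 12.1%. Psat1, of serine synthesis, was higher in KO at baseline (2.54 ± 0.64, SE) and rose after PHx in both genotypes (4.93 ± 0.66 in WT and 3.95 ± 0.59 in KO). Gdf15, a stress hormone, and Ddit3, a stress transcription factor, fell after PHx in KO (-2.81 ± 0.54 and -2.03 ± 0.55, SE; adjusted p 0.00169 and 0.0117). In WT their changes were -0.90 and -0.70 (adjusted p 0.22 and 0.38), and with WT replicates 2 and 4 left out Gdf15 fell there too (-2.40, adjusted p = 0.00119). The difference between the genotypes' responses was not called for Gdf15 (adjusted p = 0.241) or Ddit3 (adjusted p = 0.463). The lipoprotein receptor gene Vldlr was at 0.449 ± 0.309 CPM in WT and 12.3 ± 7.97 in KO after PHx (SD, n = 5; log2 4.78). Fgf21 itself was called in neither genotype comparison. Without WT replicates 2 and 4, the genotype counts after PHx (higher and lower in KO) were 5 and 1 of these 12 stress genes, 2 and 0 of 12 glucocorticoid receptor targets, 3 and 1 of 25 hormone receptors and regulators, 0 and 2 of 18 ketogenesis and PPAR-alpha genes and 1 and 3 of 16 fed-state genes, beside 16.9% and 9.23% of all genes.

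Over all 20 libraries, the genes with the pattern most like each member of the set by r of log2(CPM + 1) were, as a description, Hilpda (0.973), a lipid droplet gene, Rnf40 (0.968) and Tbrg1 (0.966) for Pdk4, and Slc44a1 (0.945), Echdc1 (0.931) and Ppp2r5a (0.928) for G6pc. For Cpt1a they were Tor1b (0.935), Acadl (0.872), a mitochondrial acyl-CoA dehydrogenase, and Nhp2 (0.872). For Angptl4 they included Dnaja2 (0.885) and Foxo1 (0.873). For Fgf21 they were Hgsnat (0.863), Lyve1 (0.818), a gene of the endothelial marker list, and Plin5 (0.817). Pck1 had the weakest likeness, with Ubb (0.71) first. Within the set, Angptl4 was most like Cpt1a (0.764) and Pdk4 (0.707) over the 20 libraries, and most like Pdk4 (0.866) and Igfbp1 (0.801) over the 10 libraries after PHx, where r with Cpt1a was 0.314. These libraries share genotype, stage and scaling, and no test was made on the r values.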

How the data were processed

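The deposited files hold raw read counts per Ensembl gene, 1 per library, without normalisation. Per the labels' design text, 1000 ng of RNA (integrity number above 8) entered TruSeq libraries for paired-end sequencing on a NovaSeq 6000, quality was assessed by FastQC 0.11.5, fastp 0.20.0 removed adapters, mm10 was the alignment target, and uniquely mapped reads were counted; the submitters' processing notes name Trimmomatic 0.36 instead of fastp. The aligner, counter, strand setting and annotation release are not given in the sources used here. Symbols and coordinates came from GENCODE M21 (46091 of 46603 identifiers matched).

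The members and all lists were chosen with earlier results of these data known. Genes were tested with edgeR 4.0.16 in R 4.3.3 (quasi-likelihood, two-sided, TMM, filterByExpr on the 4 groups), in 1 fit of 20 libraries with 4 group means; another fit split the means after PHx by hour, and another took the slope on the mitotic score with genotype in the 10 libraries after PHx. A gene is called at an adjusted p under 0.05 (Benjamini-Hochberg, across the whole table). SE is the absolute log2 change over the square root of F. CPM are counts per 1000000 of the TMM-scaled total. Correlations used log2(CPM + 1) and 100000 permutations. Reads carry no molecular identifiers. No 2 libraries were identical.

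The numbers that pair samples come from the labels, which give 9 mice a sample at both stages; the title of WT baseline replicate 1 carries no mouse number. Residual correlations within mice ran from -0.063 to 0.195. All 10 members were named in every comparison; from other lists the 2 highest and 2 lowest called genes of each pairwise comparison could be named, and for each member the 3 most alike genes. Some genes that this rule names are not reported here. Genes named for their slope on the score were chosen after their values were seen. Alternatives were DESeq2 1.42.0, other scalings and filters, fits of the compared samples only, terms for time and mouse, an S phase score of 25 genes and leaving out single libraries. In simulated data, 73% of 200 genes changed by a log2 of 2 were recovered at baseline among 14362 genes, and 66% of 200 slopes of 0.5 among 13834 genes.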

Additional observations from a re-analysis of the deposited data

Results flagged for a closer look

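Of 40 groups of 5 libraries examined (10 genes in 4 groups), 2 held a library far from the other 4, about the number that chance gives at 1 in 20 groups. G6pc in KO at baseline was at 374 CPM in replicate 12, and the next lowest library had 614 CPM; the gap was 0.816 of the group's range on the log2(CPM + 1) scale, above the critical value of 0.71. Without that library the baseline difference of G6pc was no longer called. Fbp1 in WT at baseline was at 1089 CPM in replicate 3, and the next highest library had 936 CPM; the gap was 0.768 of the range. No difference of Fbp1 was called with or without it.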

How the results depend on the processing

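The falls of G6pc and the rises of Cpt1a and Pdk4 after PHx kept their direction under all alternatives run, though the WT calls of Cpt1a and Pdk4 ended as given above, and 0 called values of the 10 genes changed sign. Sign changes were limited to uncalled values (67 of 1208 values recomputed for single genes, of which 1112 kept direction and call). Scaling by library size alone moved the median of all genes by 0.477 (KO against WT at baseline), 0.384 (after PHx), 0.36 (WT response), 0.266 (KO response) and -0.094 (difference of responses), and the share of calls that were higher at baseline from 69.5% to 96.9%, after PHx from 66.1% to 92.9%, in the WT response from 56.8% to 86.7%, in the KO response from 59.1% to 80.9% and in the difference from 42.1% to 15.8%. Under that scaling Fbp1 was 0.054 and Pck1 0.050 in the KO response, Fbp1 0.15, Pck1 0.32 and Tat 0.24 in the WT response, Fbp1 -0.10 in the difference, Cpt1a 0.15 and Tat 0.24 in KO against WT after PHx, and Cpt1a 0.28 and Pck1 0.27 at baseline, with 3634 genes and 0 of the 10 called (main 2348 and 1). Without a filter 0 of the 10 were called at baseline, and the WT response of Pck1 was 0.031; the higher share of calls was 82.4% at baseline and 28.6% in the difference.

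With the samples compared fitted alone, 5242 genes were called at baseline (1 of the 10 higher, 3 lower), 1345 after PHx (main 3544; Tat 0.0046) and 2878 in the KO response (main 4331), and the WT response of Pck1 was 0.0072. Without both low-scoring WT libraries, chosen after seeing the data, 1564 genes were called in the WT response (main 2950) with 1 of the 10 higher (Fbp1 0.14, Pck1 0.14), the difference was 0.081 for Cpt1a and -0.28 for Fbp1, and after PHx 1 of the 10 was higher (Fbp1 -0.14, Fgf21 0.61, Tat 0.75). With the replicate block of the mouse 0 of the 10 were called higher in the WT response and 7 genes in the difference (main 57); the block changed no other call of the 10 genes. The 9 mice without the block, added after seeing the data, gave 34 genes in the difference and 0.0033 for Tat in the WT response. A term for time gave 90 genes in the difference, Tat 0.035 in the WT response and Fgf21 0.79 after PHx. DESeq2 called 359 genes in the difference, and Tat after PHx was 0.012 with it and 0.011 with RLE size factors.

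For the mitotic score (main 1856 genes, 4 of the 10 lower), WT libraries alone gave 304 genes, 1 of the 10 lower and Pck1 -0.10, and KO libraries alone 69 genes, 0 of the 10 lower and Cpt1a 0.035. Without the 2 farthest libraries 732 genes were called, 1 of the 10 lower, with Ppargc1a at 0.20, and without the genotype term 958. Without KO replicate 8, or with library size alone, the slope of Tat was called.

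Leaving out single libraries gave 0 to 1 of the 10 lower at baseline (Pck1 -0.39 to 0.014, Fbp1 -0.058 to 0.22), and after PHx Fbp1 -0.23 to 0.43, Tat -0.56 to 0.24, Igfbp1 -0.34 to 0.71, Fgf21 -0.97 to 0.67 and Angptl4 -0.081 to 0.46. The WT response ran from -0.25 to 0.20 for Pck1 and -0.32 to 0.16 for Tat, and the KO response from -0.52 to 0.073 for Fbp1 and -0.11 to 0.81 for Igfbp1. The difference called 22 to 708 genes (708 without KO replicate 10 after PHx), with Pck1 -0.45 to 0.0092, Fbp1 -0.31 to 0.35, Ppargc1a -0.58 to 0.35 and Cpt1a -0.19 to 0.13. The slope called 747 to 2283 genes, with Pck1 -0.052 to 0.17. The cause of these changes was not tested. Depth limits Fgf21, whose lowest library held 2 reads.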
